A study of Mus musculus with 20 samples.

Results

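The comparison set gastrocnemius muscle of NCoR1-MKO mice, a muscle-specific knockout of the nuclear receptor corepressor NCoR1, against gastrocnemius of the CON mice named as its controls. Its members were the 5 NCoR1-MKO and 5 CON arrays, 10 of the 20 arrays in the series, and no array of the other groups entered the tests given here. All 10 came from adult males of strain C57BL/6. The sources used here do not give the genotype of the CON mice, the promoter that drives the muscle deletion or the exact age. The gastrocnemius is a calf muscle made mostly of fast fibres, and bulk RNA from it holds vessel, fat, nerve and blood cells as well as fibres. The labels do not state that every array is a separate mouse, so p-values measure the spread between these samples only, which may be technical.

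NCoR1 is a scaffold protein that binds nuclear receptors, such as the thyroid hormone, retinoid, PPAR and LXR receptors, mostly when they lack an activating ligand. It brings the deacetylase HDAC3, with TBL1X, TBL1XR1 and GPS2, to the genes those receptors occupy, and this complex holds their transcription down. In muscle many of these receptors act on genes of mitochondrial respiration, fatty acid use and lipid synthesis.

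Levels are log2 values from RMA, so a difference of 1 is a 2-fold difference, and levels were compared only within a gene. In all, 19938 genes were tested, each by 1 probe set. Array medians lay between 6.03 and 6.08, and an array correlated with the others of its group at a mean r of 0.997 to 0.998. The 12 myofibre markers, among them Ckm and Acta1, had mean levels of 13.41 to 13.43 on the CON arrays and 13.42 to 13.46 on the NCoR1-MKO arrays, near the top of the scale, whose highest value was 14.47. No probe set with a single gene symbol was named Ncor1, so the knockout label was not checked against its target. Of the 20 measured genes nearest to Ncor1 in gene order, 10 on each side, none was called by limma, and 3 had an unadjusted p under 0.05 (Epn2, Mmgt2 and Trim16, with changes of 0.14, 0.17 and 0.18).

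Muscle of NCoR1-MKO mice differed from CON muscle in a limited number of genes, most of them by little. With limma, 377 of 19938 genes (1.89 percent) passed an adjusted p under 0.05: 157 were higher (0.787 percent) and 220 lower (1.1 percent). Only these genes are said below to have risen or fallen. The rises had a median of 0.30 on the log2 scale, or 1.23-fold, and reached 1.18. The falls had a median size of 0.37, or 1.29-fold, and reached 2.76. Only 2 genes rose 2-fold or more, Scd2 and Pcbd1, whereas 10 fell that far. At 1.5-fold or more the numbers were 11 and 51. At an unadjusted p under 0.05, the level quoted below for lists without a call, 12.2 percent of all genes passed, 6.71 percent higher and 5.48 percent lower. Of the genes that rose, 140 of 157 had all NCoR1-MKO values above all CON values, against 2.21 percent of all genes. Of the 220 that fell, 203 had them all below, against 1.96 percent of all genes (4.17 percent in either direction). The calls were made on these same values, so this separation is largely built into them and is no further evidence.

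Calls of small changes were often lost when any 1 array was left out. In the 10 fits that each left out 1 array, 71 of the 157 rises and 136 of the 220 falls were called every time. The number of rises was 184 without NCoR1-MKO 5. It dropped to 129, 107, 104, 109 and 86 without CON 1 to 5 in turn. Without NCoR1-MKO 1 to 4 in turn it was 88, 105, 89 and 102. The falls numbered between 147 and 226. With all 35556 probe sets tested by limma, named or not, 256 (0.72 percent) were called. The largest difference on the arrays was then in probe set 10485357, which has no single gene symbol here: it read 9.01 to 11.96 in CON and 4.40 to 5.16 in NCoR1-MKO, -5.95 ± 0.43.

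**Figure D1:**
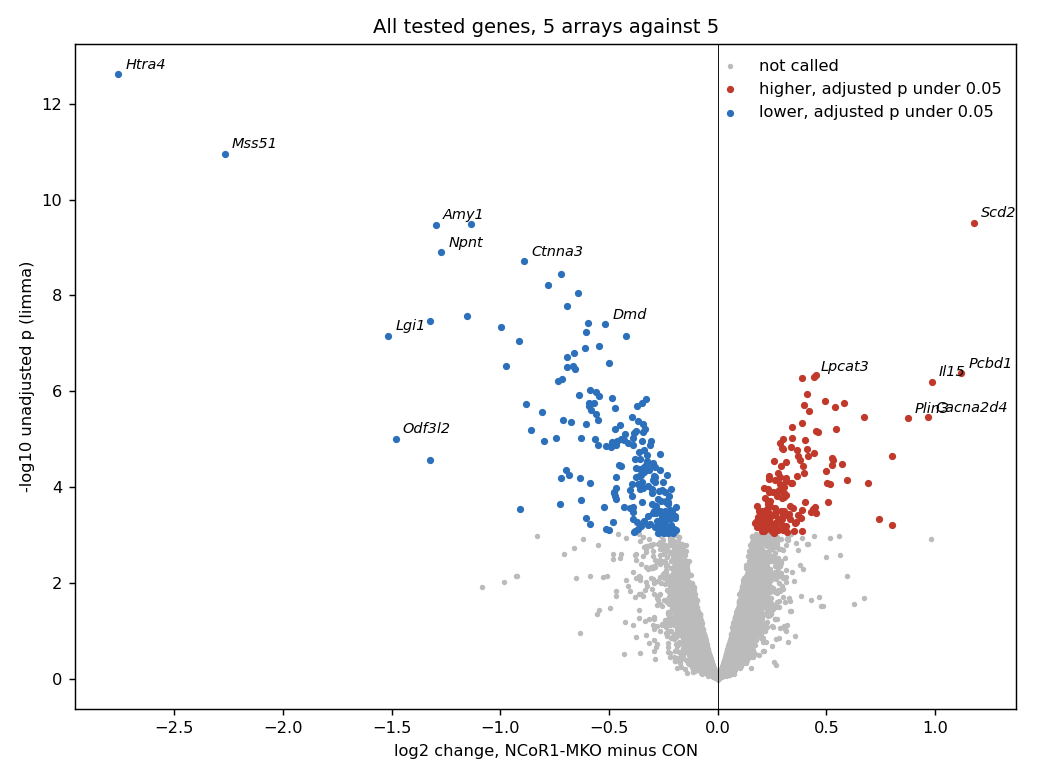
Each point is 1 of 19938 genes, with its log2 change (NCoR1-MKO minus CON) on the horizontal axis and the -log10 of limma's unadjusted p on the vertical axis. The 157 genes called higher lie within 1.18 of 0, while the 220 called lower reach -2.76, with Htra4 and Mss51 farthest out.

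The fall in Htra4, which encodes a secreted serine protease of the HtrA family, was the largest of any named gene. Its CON values were 10.73, 10.63, 10.61, 10.74 and 10.52, and its NCoR1-MKO values were 8.09, 7.97, 8.04, 7.86 and 7.47. The groups were separated by more than 2 units, and the change was -2.76 ± 0.10 (SE), a 6.78-fold decrease (limma, adjusted p = 4.8e-09). Mss51 encodes a mitochondrial protein of fast fibres that is known to respond to myostatin. It stood at 9.83, 9.88, 9.89, 9.43 and 10.17 in CON and at 7.74, 7.61, 7.46, 7.45 and 7.59 in NCoR1-MKO. The values did not overlap, and the fall was 4.82-fold (-2.27 ± 0.11, limma adjusted p = 1.1e-07).

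Several of the other large falls were in genes for secreted or surface proteins. Ostn, which encodes the muscle peptide musclin, read 8.78, 8.96, 9.03, 8.69 and 9.10 in CON and 7.66, 7.68, 7.45, 7.20 and 7.94 in NCoR1-MKO, a 2.5-fold fall (limma, adjusted p = 5.23e-05). Npnt encodes nephronectin, a matrix ligand of integrins. It read 8.30, 8.27, 8.60, 8.44 and 8.69 in CON and 7.35, 7.25, 6.98, 7.21 and 7.15 in NCoR1-MKO, a 2.41-fold fall with no overlap (limma, adjusted p = 4.21e-06). Lgi1, a secreted glycoprotein best known from neurons, read 7.27, 7.10, 6.98, 6.41 and 7.17 in CON and 5.33, 5.21, 5.50, 5.77 and 5.53 in NCoR1-MKO. The lowest CON array, CON 4, was still above every NCoR1-MKO array for Lgi1. Cd28, a costimulatory receptor of T cells, fell by 1.13 ± 0.07, from 7.04 to 7.37 in CON down to 5.96 to 6.17 in NCoR1-MKO. The 15 measured macrophage and leukocyte markers held no called gene in limma, and 0 of them had an unadjusted p under 0.05. Relative to the CON mean, their mean was -0.08, -0.06 and -0.05 on NCoR1-MKO 1 to 3. It was -0.01 on NCoR1-MKO 4 and 0.18 on NCoR1-MKO 5, beside -0.03 to 0.04 in CON.

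The falls also included enzymes and carriers. Amy1, which encodes an amylase that breaks down starch and glycogen, read 8.03, 8.36, 8.20, 8.01 and 8.21 in CON and 7.03, 7.03, 6.74, 6.73 and 6.80 in NCoR1-MKO. The groups lay about 1 unit apart, and the fall was 2.46-fold (limma, adjusted p = 1.33e-06). Slc25a30, a mitochondrial carrier, ranged from 8.60 to 9.71 in CON and from 7.09 to 8.10 in NCoR1-MKO, where NCoR1-MKO 1 was lowest. Odf3l2, an outer dense fibre-like gene, fell by 1.48 ± 0.22 with the widest spread among the large falls (SD 0.58 in CON, n = 5). Pld5, a phospholipase D family member, fell by 1.15 ± 0.10 to nearly the same value on all 5 NCoR1-MKO arrays, 5.88 to 6.02. Slc40a1, the iron exporter ferroportin, fell by 0.86 ± 0.12, and Atp13a5, a P5-type transport ATPase, by 0.97 ± 0.10.

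**Figure D2:**
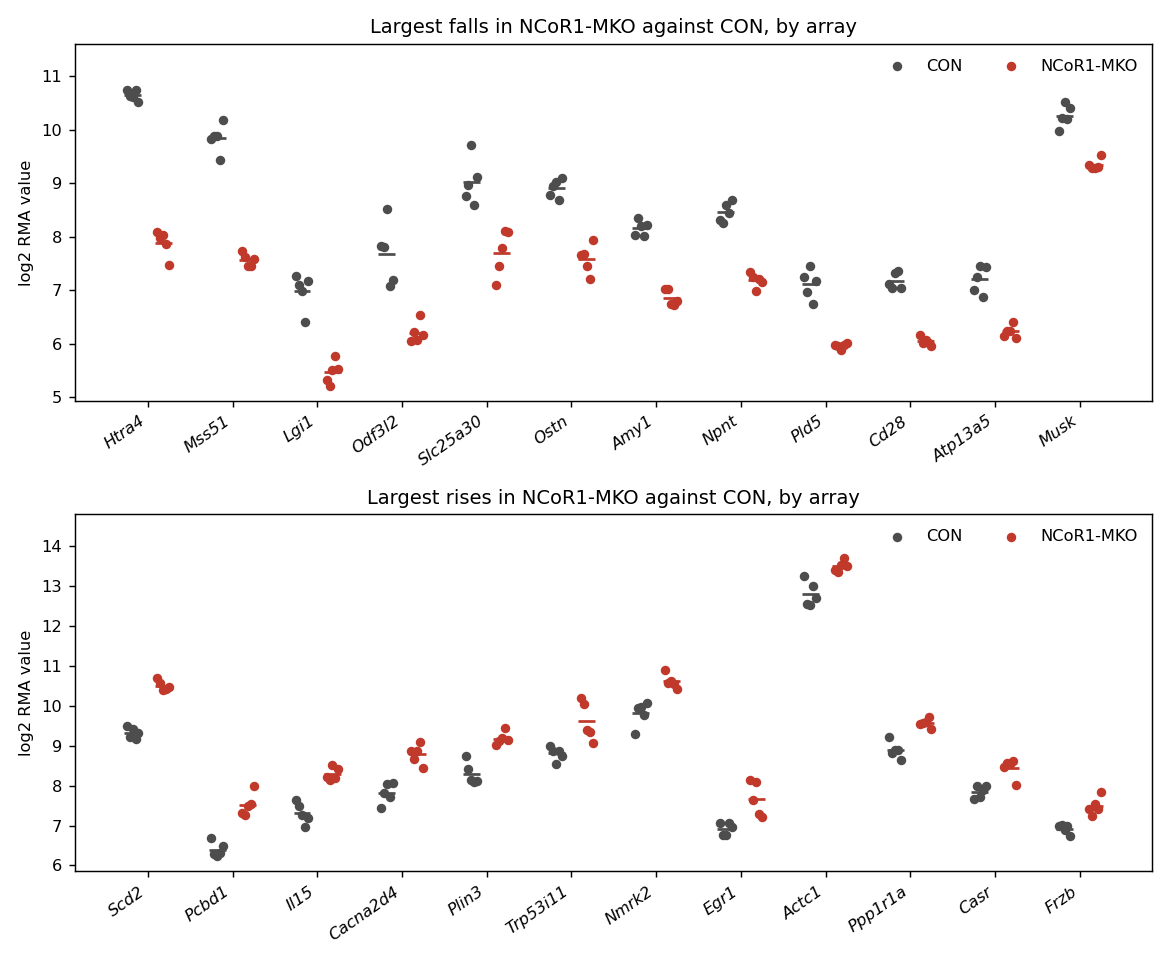
Points are the log2 RMA values of single arrays and short lines are group means, in CON (grey) and NCoR1-MKO (red), for the 12 largest falls and the 12 largest rises with settled names. In all 24 genes the values of both groups stay apart, and Htra4 and Mss51 show the widest gaps.

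Scd2, which puts a double bond into saturated fatty acids, rose most. It read 9.50, 9.23, 9.42, 9.18 and 9.33 in CON and 10.69, 10.57, 10.39, 10.41 and 10.47 in NCoR1-MKO. No array came near the other group, and the rise was 2.26-fold (1.18 ± 0.07, limma adjusted p = 1.33e-06). Pcbd1 encodes a dehydratase that recycles the cofactor tetrahydrobiopterin and also binds the transcription factor HNF1. It read 6.68, 6.28, 6.23, 6.33 and 6.49 in CON and 7.31, 7.28, 7.50, 7.53 and 7.995 in NCoR1-MKO, a 2.17-fold rise (limma, adjusted p = 2.81e-04). NCoR1-MKO 5 was its highest array.

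Il15, a cytokine made by muscle, read 7.65, 7.48, 7.26, 6.98 and 7.18 in CON and 8.22, 8.13, 8.51, 8.19 and 8.42 in NCoR1-MKO, a 1.98-fold rise without overlap (limma, adjusted p = 3.53e-04). Plin3, a coat protein of lipid droplets, rose by 0.87 ± 0.12, from 8.10 to 8.74 in CON up to 9.02 to 9.44 in NCoR1-MKO. Nmrk2, the muscle kinase that turns nicotinamide riboside into an NAD precursor, rose by 0.80 ± 0.13, with CON 1 (9.30) well below the other CON arrays. Ppp1r1a, an inhibitor of protein phosphatase 1, rose by 0.67 ± 0.09. The calcium-sensing receptor gene Casr rose by 0.59 ± 0.11, although NCoR1-MKO 5 (8.02) lay just above the highest CON array (7.99). Frzb, a secreted antagonist of Wnt proteins, rose by 0.57 ± 0.09, Mrgprh, a G protein-coupled receptor, by 0.54 ± 0.07, and Plbd1, a phospholipase B-like gene, by 0.53 ± 0.08. Each of these genes stayed called in every fit with 1 array left out.

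A pair of large rises rested on few arrays. Trp53i11, a p53-inducible gene, read 10.19, 10.04, 9.41, 9.34 and 9.08 in NCoR1-MKO and 8.54 to 9.003 in CON. It kept its call only without NCoR1-MKO 4 or without NCoR1-MKO 5, with adjusted p up to 0.10 in the other fits. Egr1, an immediate early transcription factor, read 8.13, 7.64, 8.08, 7.29 and 7.21 in NCoR1-MKO and 6.75 to 7.07 in CON. It kept its call only without CON 1, NCoR1-MKO 4 or NCoR1-MKO 5, with limma adjusted p up to 0.089 otherwise. None of the other 24 immediate early genes measured was called by limma, and 2 of them had an unadjusted p under 0.05.

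The corepressor's own partners differed little from CON. Hdac3, its deacetylase, read 11.15 to 11.30 in CON and 11.06 to 11.15 in NCoR1-MKO, a difference of -0.10 ± 0.04 (limma, adjusted p = 0.384). The differences were 0.05 for Tbl1x, -0.10 for Tbl1xr1 and -0.10 for Gps2, none of them called. Among 20 measured members of corepressor complexes and deacetylases, 1 was called, the mitochondrial deacetylase gene Sirt3 (0.21 ± 0.05), and it kept its call only without NCoR1-MKO 5. Of the 20 members, 7 had an unadjusted p under 0.05, 3 higher and 4 lower, beside 12.2 percent of all genes. Nrip1, the corepressor RIP140, was not called at -0.59 ± 0.19 (limma, adjusted p = 0.158): NCoR1-MKO 1 and 2 read 8.36 and 8.46, while NCoR1-MKO 3 to 5 read 9.22 to 9.49 beside 9.33 to 9.68 in CON.

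Among 38 nuclear receptors, the family that includes the receptors NCoR1 binds, 2 fell and none rose. The share called was 5.26 percent, beside 1.89 percent of all genes. Ppara, the fatty acid receptor PPARalpha, read 8.38, 8.62, 8.39, 8.28 and 8.51 in CON and 8.09, 7.97, 8.01, 8.22 and 8.11 in NCoR1-MKO, a 1.28-fold fall (limma, adjusted p = 0.0119). The closest arrays, CON 4 and NCoR1-MKO 4, were 0.06 apart. Rora, an orphan receptor of the clock, differed by -0.22 ± 0.05 and kept its call only without CON 4 or NCoR1-MKO 4. Ppard differed by 0.15 ± 0.05 and Esrra by 0.01 ± 0.05, neither called. Of 15 coactivators and acetyltransferases, Ppargc1b, which encodes PGC-1beta, was called. It read 8.61, 8.64, 8.73 and 8.72 on NCoR1-MKO 1 to 4 but 8.14 on NCoR1-MKO 5, within the CON range of 7.92 to 8.19. The rise was 0.51 ± 0.10 with all arrays and 0.62 without NCoR1-MKO 5, and it lost its call without CON 3, CON 4, CON 5, NCoR1-MKO 2, NCoR1-MKO 3 or NCoR1-MKO 4 (limma adjusted p 0.050 to 0.059). Ppargc1a differed by -0.10 ± 0.06 and was not called.

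The targets of lipid-sensing receptors held the largest share of rises outside mitochondria. LXR is activated by oxysterols, and SREBP proteins switch on sterol and fatty acid synthesis. Of 25 measured LXR and SREBP targets, 5 rose and 1 fell, a share called of 24.0 percent beside 1.89 percent of all genes. Their median change was 0.13, against 0.00 over all genes, and 22 of the 25 values were positive. This list was chosen with earlier results of these data known, so its counts are no independent evidence. Besides Scd2, the genes that rose were these 4. Lpcat3, which puts polyunsaturated fatty acids into phospholipids, read 9.55, 9.53, 9.60, 9.46 and 9.66 in CON and 10.08, 9.99, 9.95, 9.93 and 10.06 in NCoR1-MKO, a 1.36-fold rise without overlap. Abca1, the exporter of cholesterol to apolipoproteins, rose 1.46-fold, from 8.82 to 9.24 in CON up to 9.50 to 9.68. Insig1, which holds SREBP in the endoplasmic reticulum, rose by 0.45 ± 0.09, with CON 5 at 8.06 and NCoR1-MKO 4 at 8.06. Srebf1, which encodes SREBP-1, rose by 0.43 ± 0.09 with overlapping groups.

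Calls of the last of these LXR and SREBP targets were less firm. Srebf1 kept its call only without CON 3, NCoR1-MKO 3 or NCoR1-MKO 5, and Insig1 lost it without CON 1, CON 3, NCoR1-MKO 1, NCoR1-MKO 2 or NCoR1-MKO 3. The list held 3 to 5 rises with 1 array left out, 3 of them without CON 1, NCoR1-MKO 1 or NCoR1-MKO 2. Me1, malic enzyme, which supplies NADPH for fatty acid synthesis, went the other way: it fell from 11.40 to 11.54 in CON to 11.18 to 11.27 in NCoR1-MKO (-0.27 ± 0.04, limma adjusted p = 0.00358). The mean of the list on CON 1 was 0.15 above the CON mean, overlapping with NCoR1-MKO 3 (0.13) and 4 (0.11), and NCoR1-MKO 5 was highest at 0.31. Means of the 10 adipocyte markers were also highest on CON 1 (0.44) and NCoR1-MKO 5 (0.40), beside -0.20 to 0.00 on the other CON arrays and -0.17 to 0.08 on the other NCoR1-MKO arrays. The part of fat tissue in the values of single arrays was not tested. Of the adipocyte markers none was called by limma and 1 had an unadjusted p under 0.05. In such bulk samples a change in the number of cells of a type and a change in RNA per cell cannot be told apart.

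Targets of other receptors held fewer calls by number. The shares called were 8.0 percent for PPAR, 20.0 percent for thyroid hormone and 8.33 percent for retinoid targets, beside 1.89 percent of all genes. PPAR targets, genes of fatty acid uptake and breakdown, had 2 rises and no fall among 25, a median of 0.10 and 21 positive values. The rises were Pex11a, which makes peroxisomes divide (9.43, 9.33, 9.44, 9.30 and 9.57 against 8.91 to 9.18 in CON), and Slc25a20, the carrier of acylcarnitine into mitochondria (9.94 to 10.15 against 9.66 to 9.87). Among 15 thyroid hormone targets 1 rose (Hr) and 2 fell (Slc16a10 and Me1). Hr, a corepressor that thyroid hormone induces, had a change of 0.39 ± 0.09 and kept its call only without CON 3. Slc16a10, a thyroid hormone transporter, changed by -0.39 ± 0.09 and kept its call only without CON 1, NCoR1-MKO 1 or NCoR1-MKO 2. Of 12 retinoid targets 1 fell, Aldh1a1, which makes retinoic acid, by 0.58 ± 0.07 (10.05 to 10.35 in CON, 9.46 to 9.76 in NCoR1-MKO).

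Stretches upstream of some of these genes are shown because nuclear receptors bind the half-site AGGTCA and its repeats. Promoter windows of 300 bases (250 before to 50 after the start) were taken from RefSeq, build GRCm38.p6, for 15614 of the 19938 genes. The half-site, on either strand, was in 16.3 percent of all windows, in 27 of 118 (22.9 percent) of genes that rose and in 35 of 177 (19.8 percent) of genes that fell. It is part of TCAAGGTCA, the estrogen-related receptor site, found in 0.346 percent of all windows, in 0 of 118 and in 1 of 177. It is also part of the direct repeats of the half-site with 1 or 4 bases between the copies, which were in 8 and 1 of all windows and in none of a called gene. A match is only a run of letters and does not show binding. Each stretch below has 80 bases of upstream sequence in the gene's own direction, and capitals mark the half-site or its reverse complement.
Pcbd1, rose: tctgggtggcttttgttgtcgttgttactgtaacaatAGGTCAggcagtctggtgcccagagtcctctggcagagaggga
Insig1, rose: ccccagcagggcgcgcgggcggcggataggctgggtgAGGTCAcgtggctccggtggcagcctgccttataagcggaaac
Acadvl, rose: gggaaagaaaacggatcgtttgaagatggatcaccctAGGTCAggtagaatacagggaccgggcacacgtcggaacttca
Sucla2, rose: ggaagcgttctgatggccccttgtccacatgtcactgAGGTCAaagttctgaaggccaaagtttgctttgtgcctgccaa
Npnt, fell: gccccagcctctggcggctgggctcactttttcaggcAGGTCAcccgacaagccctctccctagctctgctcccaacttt
Myl2, fell: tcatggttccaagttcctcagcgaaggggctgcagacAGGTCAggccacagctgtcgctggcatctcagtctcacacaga
Prkag2, fell: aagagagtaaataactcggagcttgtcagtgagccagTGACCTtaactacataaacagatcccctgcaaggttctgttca
These lie at chr10:61089116-61089195 (plus strand, Pcbd1), chr5:28071270-28071349 (plus, Insig1), chr11:70015473-70015552 (minus, Acadvl), chr14:73552590-73552669 (plus, Sucla2), chr3:132950437-132950516 (minus, Npnt), chr5:122093011-122093090 (plus, Myl2) and chr5:24995754-24995833 (minus, Prkag2). Rises and falls both occur among the genes with the half-site.

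Of the 15 motifs searched on both strands, CCGGAAGT, the site of ETS factors such as GABP that serve many mitochondrial genes, is shown next because most of the called genes that carry it rose. It was in 6.01 percent of all windows, in 12 of 118 (10.2 percent) of genes that rose and in 2 of 177 (1.13 percent) of genes that fell. The NRF1 site was in 1.61 percent of all windows, in 3.39 percent of those that rose and in 2.26 percent of those that fell. The other motifs were a MEF2-like site (4.15, 0.0 and 3.39 percent), TGACGTCA (2.72, 2.54 and 1.69), CACGTG (9.5, 9.32 and 11.3), CCAAT (41.7, 48.3 and 42.9), TATAAA (13.6, 13.6 and 14.7), CATTCC (15.1, 12.7 and 16.9), an exact MEF2 site (0.205, 0.0 and 0.0), an exact CArG box (0.0256, 0.0 and 0.0) and the sterol element TCACCCCAC (0.634, 0.847 and 0.565), in the same order. These shares are descriptions without a test, and CCGGAAGT was picked after they were seen. All stretches below are from genes that rose, and no gene that fell is shown. Capitals mark CCGGAAGT or its reverse complement.
Tfam, rose: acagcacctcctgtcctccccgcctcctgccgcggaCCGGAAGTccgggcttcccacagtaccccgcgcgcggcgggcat
Slc25a20, rose: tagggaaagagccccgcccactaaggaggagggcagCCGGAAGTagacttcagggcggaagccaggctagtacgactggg
Mrpl3, rose: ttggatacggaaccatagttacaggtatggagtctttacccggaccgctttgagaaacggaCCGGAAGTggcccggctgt
Pex11a, rose: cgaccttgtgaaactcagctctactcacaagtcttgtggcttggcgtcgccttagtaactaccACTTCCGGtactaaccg
These lie at chr10:71238048-71238127 (minus strand, Tfam), chr9:108662021-108662100 (plus, Slc25a20), chr9:105053188-105053267 (plus, Mrpl3) and chr7:79743132-79743211 (minus, Pex11a).

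Genes of the respiratory chain were higher by small amounts. Complex I passes electrons from NADH to coenzyme Q. Of its 35 measured subunits 6 rose (17.1 percent, beside 1.89 percent of all genes called) and none fell. The median change was 0.14 and 34 of 35 values were positive. Ndufb5, an accessory subunit, read 11.41, 11.36, 11.26, 11.27 and 11.28 in CON and 11.62, 11.52, 11.64, 11.68 and 11.63 in NCoR1-MKO, a 1.23-fold rise (limma, adjusted p = 0.003). Ndufa5, another accessory subunit, rose by 0.23 ± 0.04, from 8.75 to 8.88 up to 8.98 to 9.09. Ndufb5 and Ndufa5 stayed called with any 1 array left out. Ndufb8 (0.23 ± 0.05) kept its call in 3 and Ndufv1, a flavoprotein of the NADH-binding arm (0.20 ± 0.04), in 2 of those 10 fits. The count of complex I rises was 2 to 5 in them, 5 without CON 4, 4 without NCoR1-MKO 2 or 5, 3 without CON 1 and 2 without any of the other 6 arrays.

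The mean of the complex I subunits was higher on each NCoR1-MKO array (0.10 to 0.17 above the CON mean) than on any CON array (-0.02 to 0.03). The same separation was seen for complexes II and III (14 genes), complex IV (20 genes), ATP synthase (16 genes), the TCA cycle with pyruvate dehydrogenase (19 genes) and coenzyme Q synthesis (12 genes). Over complexes II and III the median was 0.13 and all 14 values were positive, with 1 rise, Uqcrq of complex III (0.18 ± 0.04). It was 10.83 or 10.84 on every NCoR1-MKO array and 10.62 to 10.69 in CON, and it lost its call without CON 2, CON 5, NCoR1-MKO 1, NCoR1-MKO 2 or NCoR1-MKO 3. In complex IV no gene was called by limma, 8 of 20 had an unadjusted p under 0.05, all higher, and the median was 0.08. Cox6b1 and Cox5a were nearest, at 0.16 ± 0.04 each (limma, adjusted p = 0.0626 and 0.0665). ATP synthase had 1 rise, Atp5j2 (0.18 ± 0.04), which was called in none of the fits with 1 array left out.

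The TCA cycle, which feeds the chain with NADH, had 4 rises and 1 fall among 19 genes and a median of 0.15. Its share called was 26.3 percent, beside 1.89 percent of all genes. Sucla2, a subunit of succinyl-CoA ligase, read 11.59 to 11.72 in CON and 11.96, 11.80, 11.94, 11.92 and 11.99 in NCoR1-MKO, and stayed called in every fit with 1 array left out. Fh1, fumarase, changed by 0.21 ± 0.04 and Idh3a, of isocitrate dehydrogenase, by 0.17 ± 0.04. The latter was called in none of those fits, and the list kept 1 to 3 rises. The gene that fell was Pcx, pyruvate carboxylase, which refills the cycle from pyruvate. It read 9.65, 9.54, 9.90, 9.67 and 9.77 in CON and 9.17, 9.20, 9.15, 9.29 and 9.36 in NCoR1-MKO, a 1.39-fold fall without overlap (limma, adjusted p = 0.00167).

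Fatty acid oxidation had 3 rises and no fall among 25 genes (2 to 5 rises with 1 array left out), with a median of 0.16. Acadvl, the dehydrogenase of long-chain acyl-CoA, read 9.96, 10.06, 9.83, 9.92 and 9.91 in CON and 10.33, 10.22, 10.34, 10.23 and 10.25 in NCoR1-MKO, a 1.27-fold rise (limma, adjusted p = 0.00224). Etfdh, which hands the electrons of these dehydrogenases to coenzyme Q, changed by 0.30 ± 0.06 with overlapping groups and kept its call only without CON 2, NCoR1-MKO 2 or NCoR1-MKO 4. Pnpla2, the lipase that opens triglyceride stores, rose by 0.36 ± 0.06, from 10.70 to 10.98 up to 11.13 to 11.29. In peroxisomes Abcd2, a transporter of very long fatty acids, rose by 0.41 ± 0.05 (10.63 to 10.77 against 10.18 to 10.39), while Crot, which makes acylcarnitine from medium chains, changed by -0.28 ± 0.06 and kept its call in 3 of the 10 fits.

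Other mitochondrial groups held few called genes. Of 76 mitochondrial ribosome genes 1 rose, Mrpl3 (0.21 ± 0.04), a share of 1.32 percent that is below the background share, and the median was 0.07. However, 63 of the 76 values were positive, and 20 had an unadjusted p under 0.05 (19 higher), beside 12.2 percent of all genes. Top1mt, the topoisomerase of mitochondrial DNA, rose by 0.24 ± 0.05 and stayed called throughout, whereas Tfam, which packages that DNA, changed by 0.25 ± 0.05 and kept its call only without CON 1. The 19 regulators of mitochondrial DNA and genes, which include Top1mt and Tfam, had a median of 0.09, and 17 values were positive. Of 19 genes of branched-chain amino acid catabolism 1 rose, Acad8 of valine breakdown (0.19 ± 0.04), which was called in 4 of the 10 fits. The median of that list was 0.12, 18 of 19 values were positive and 10 were higher at an unadjusted p under 0.05. Its mean was 0.04 to 0.14 above the CON mean on the NCoR1-MKO arrays, beside -0.05 to 0.04 in CON, and all 5 NCoR1-MKO arrays lay above the highest CON array. The means of the regulators of mitochondrial DNA and genes were separated in the same way. Ckmt2, the mitochondrial creatine kinase of muscle, rose by 0.30 ± 0.06 and lost its call without NCoR1-MKO 3 (limma, adjusted p = 0.055). No gene of 39 for mitochondrial import, dynamics and quality control was called by limma. However, 29 of the 39 values were positive, and 9 had an unadjusted p under 0.05, all higher, beside 12.2 percent of all genes. The mean of these 39 genes lay above the highest CON array on 4 NCoR1-MKO arrays.

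**Figure D3:**
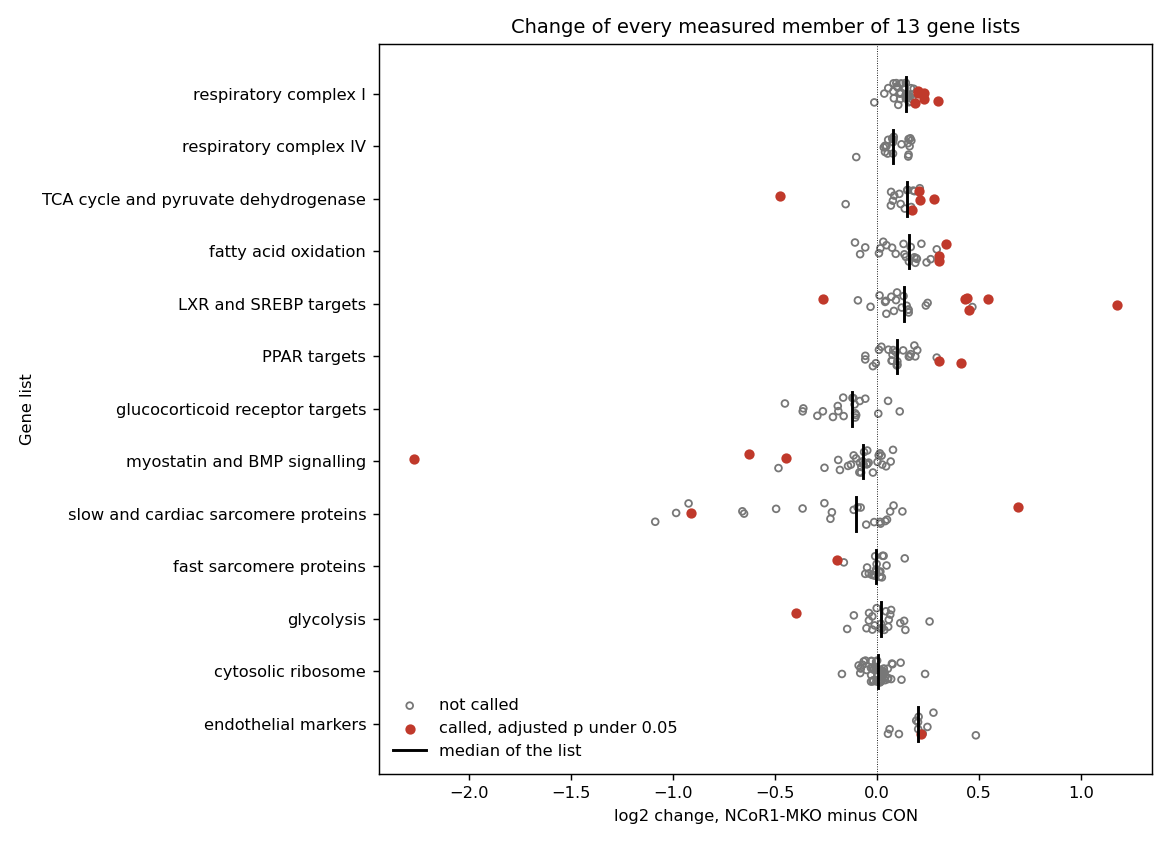
Each point is the log2 change (NCoR1-MKO minus CON) of 1 measured gene of 13 lists, filled where limma's adjusted p was under 0.05, and the vertical bar is the list's median. The respiratory lists are narrow and lie right of 0, whereas the slow and cardiac sarcomere genes spread from -1.09 to 0.69.

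Few carbohydrate genes were called. Of 23 glycolysis genes 1 fell (4.35 percent, beside 1.89 percent of all genes called), and the median was 0.02. The gene was Fbp2, the muscle fructose bisphosphatase, which fell by 0.40 ± 0.08 (8.33 to 8.70 in CON, 7.97 to 8.28 in NCoR1-MKO). None of 21 glycogen genes was called by limma, and 6 had an unadjusted p under 0.05, 3 in each direction. Of 34 genes of AMPK, insulin and mTOR signalling 3 fell (8.82 percent, beside 1.89 percent of all genes) and none rose. In this list 10 values were positive. An unadjusted p under 0.05 was found for 13 of its genes, 11 of them lower, beside 12.2 percent of all genes. Its mean ran from -0.14 to -0.07 on the NCoR1-MKO arrays, relative to the CON mean, beside -0.05 to 0.03 in CON. Prkag2, a regulatory subunit of AMPK, read 7.92, 8.07, 8.24, 7.97 and 8.05 in CON and 7.66, 7.57, 7.72, 7.76 and 7.64 in NCoR1-MKO, a 1.3-fold fall (limma, adjusted p = 0.00427). Tbc1d4, which gates glucose transporter traffic, changed by -0.27 ± 0.06 and kept its call only without CON 5. Eif4ebp1, a brake on translation, changed by -0.26 ± 0.06 and kept its call only without CON 2 or NCoR1-MKO 5.

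Myostatin is a secreted restraint on muscle growth. Of 32 genes of myostatin and BMP signalling 3 fell (9.38 percent, beside 1.89 percent of all genes called) and none rose. They were Mss51, Mstn and Acvr2a. Mstn encodes myostatin itself and read 10.40, 10.46, 10.82, 10.42 and 10.62 in CON and 9.83, 9.87, 9.77, 10.20 and 9.91 in NCoR1-MKO, a 1.55-fold fall (limma, adjusted p = 0.00224). Acvr2a, a receptor for it, fell by 0.44 ± 0.07, from 8.67 to 8.92 down to 8.29 to 8.57. Mstn and Acvr2a did not overlap between groups. The mean of the list was 0.14 to 0.21 below the CON mean on the NCoR1-MKO arrays, beside -0.03 to 0.04 in CON, and the median change was -0.07. Without Mss51, left out after its value was seen, the mean of the other 31 genes was 0.08 to 0.14 below, beside -0.02 to 0.03 in CON. Mss51, Lgi1 and Npnt had been put into their lists with their changes known, so the counts and means of these lists are no independent evidence. Of 28 muscle-secreted factors, 4 fell (Npnt, Ostn, Lgi1 and Mstn) and 1 rose (Il15). The share called was 17.9 percent, beside 1.89 percent of all genes.

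Genes of the synapse and the membrane fell and rose one by one. Musk, a kinase needed to gather acetylcholine receptors under the nerve ending, read 9.97, 10.22, 10.51, 10.19 and 10.40 in CON and 9.33, 9.28, 9.28, 9.31 and 9.53 in NCoR1-MKO, a 1.88-fold fall (limma, adjusted p = 8.9e-05). Dmd, which encodes dystrophin, the link from actin to the membrane, read 10.28, 10.27, 10.30, 10.14 and 10.20 in CON and 9.80, 9.72, 9.66, 9.67 and 9.74 in NCoR1-MKO, a 1.43-fold fall with no overlap (limma, adjusted p = 5.23e-05). Its partner Dtnb, dystrobrevin beta, fell by 0.25 ± 0.05, whereas Sntb1, syntrophin beta 1, rose by 0.50 ± 0.09, from 8.57 to 9.01 up to 9.15 to 9.50. These 3 were the called genes among 23 of the dystrophin complex and costamere.

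Ctnna3, a catenin of cell contacts best known from heart, fell by 0.89 ± 0.06, from 8.28 to 8.61 down to 7.50 to 7.68. Dach2, a repressor of the myogenin gene, fell by 0.67 ± 0.09, and Fbxo30, a ubiquitin ligase of the atrophy programme, rose by 0.34 ± 0.06. Musk was the third called gene among 22 genes of denervation and atrophy, a share called of 13.6 percent beside 1.89 percent of all genes. Cacna2d4, an alpha-2-delta protein that accompanies voltage-gated calcium channels, read 7.44, 7.83, 8.05, 7.70 and 8.07 in CON and 8.86, 8.68, 8.86, 9.09 and 8.43 in NCoR1-MKO, a 1.95-fold rise (limma, adjusted p = 0.00115). It was the only call among 19 calcium channel subunits. The potassium channel gene Kcnq5 fell by 0.46 ± 0.08 and stayed called throughout. Kcnab1, a channel beta subunit, and Kcnn2, a calcium-activated channel, changed by -0.61 ± 0.13 and 0.33 ± 0.07, with calls in 4 and 2 of the fits with 1 array left out. None of 31 genes of calcium handling was called by limma, and 5 had an unadjusted p under 0.05.

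The contractile apparatus of slow fibres varied widely within each group. Myl2, the slow and cardiac regulatory light chain, read 9.74, 10.07, 9.33, 9.66 and 9.07 in CON and 8.74, 8.39, 9.17, 8.78 and 8.24 in NCoR1-MKO. NCoR1-MKO 3 lay above CON 5, and the fall of 0.91 ± 0.19 (limma, adjusted p = 0.0242) lost its call without CON 1, CON 2, CON 4 or NCoR1-MKO 2 (adjusted p up to 0.068). Myh7, the slow myosin heavy chain, ranged from 9.32 to 10.69 in CON and from 7.97 to 9.89 in NCoR1-MKO, a difference of -0.98 ± 0.33 that was not called (limma, adjusted p = 0.183). Tnni1 and Tnnt1, the slow troponins, differed by -0.92 ± 0.29 and -0.65 ± 0.21 (limma, adjusted p = 0.159 and 0.164), and Myl3 by -0.66 ± 0.17 (0.0724).

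Across the 24 slow and cardiac genes the array means were lowest on CON 5 (-0.28) among the controls and on NCoR1-MKO 5 (-0.52) and 2 (-0.35) among the knockouts, and the groups overlapped. Actc1, the cardiac actin, which skeletal muscle makes mainly during development, was the 1 rise in this list. It read 13.26, 12.55, 12.54, 13.01 and 12.70 in CON and 13.40, 13.35, 13.54, 13.71 and 13.51 in NCoR1-MKO, a 1.61-fold rise (limma, adjusted p = 0.0095). Among 20 fast sarcomere genes the median was 0.00 and 1 gene was called, Mylk2, the kinase of the regulatory light chain (-0.20 ± 0.04), which kept its call only without CON 1.

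**Figure D4:**
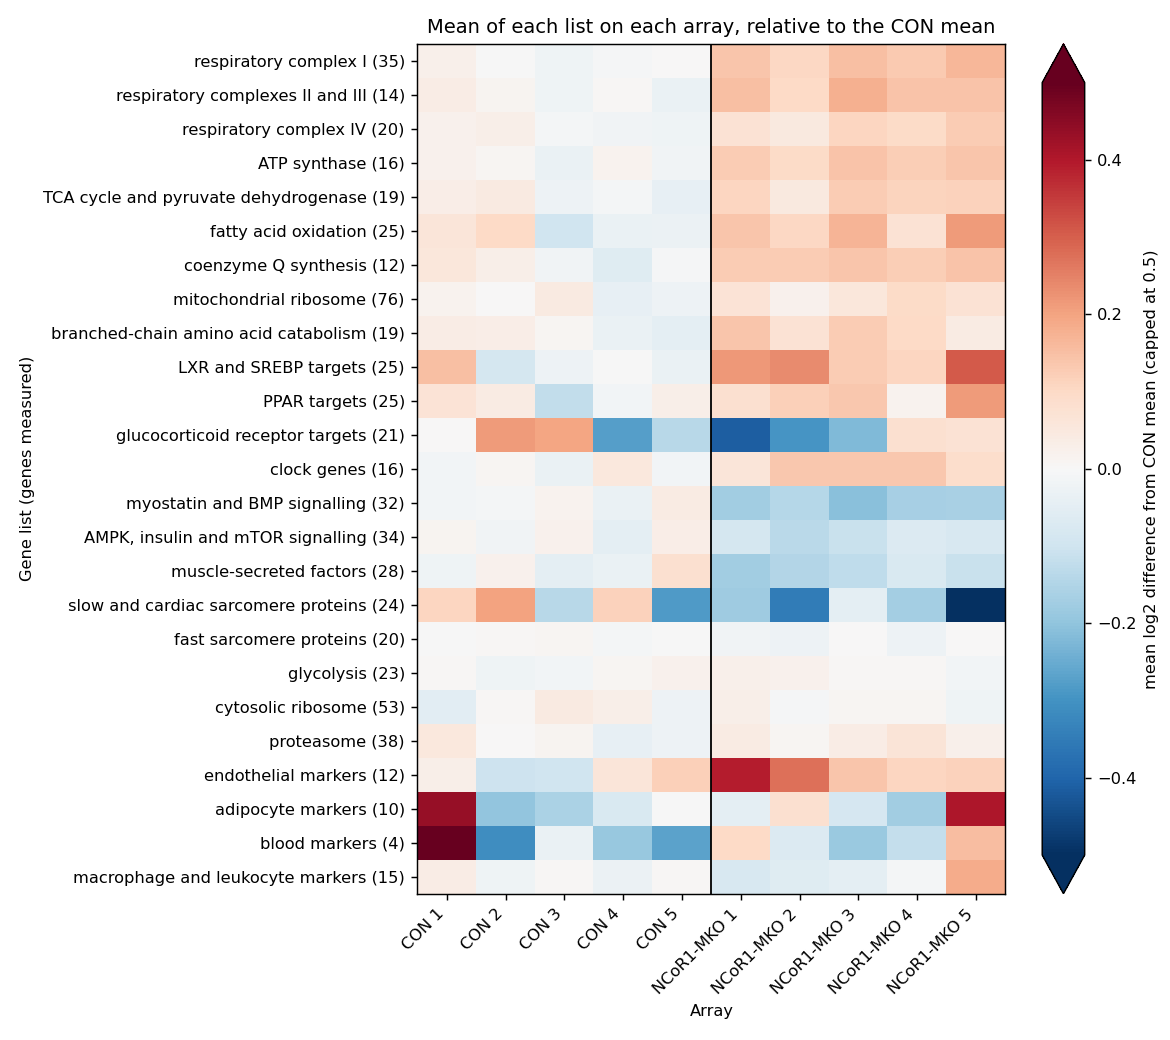
Each cell is the mean log2 difference of a list's genes on 1 array from their CON mean, for 25 lists (genes measured in brackets) and 10 arrays, with colours capped at 0.5. The respiratory lists are higher on all 5 NCoR1-MKO arrays, while glucocorticoid targets, slow sarcomere genes and adipocyte markers differ as much within a group as between groups.

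The glucocorticoid receptor targets varied as much between arrays of one genotype as between genotypes. Of these 21 genes none was called by limma, 4 had an unadjusted p under 0.05 and 18 values were negative. Their mean was -0.41, -0.30 and -0.22 on NCoR1-MKO 1 to 3 but 0.08 and 0.07 on NCoR1-MKO 4 and 5, and CON ran from -0.27 to 0.21. Foxo1, a transcription factor of fasting in that list, differed by -0.45 ± 0.13 (limma, adjusted p = 0.0968).

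Of 16 clock genes 1 was called, a fall, and 6 had an unadjusted p under 0.05, 4 higher and 2 lower. Their median was 0.02 and 8 values were positive. Arntl, the clock activator BMAL1, read 8.63 and 8.15 on NCoR1-MKO 1 and 2 and 7.06 to 7.10 on NCoR1-MKO 3 to 5, just above the 6.86 to 7.002 of CON. Nr1d1, the clock repressor REV-ERBalpha, differed by 0.98 ± 0.24 with overlapping groups and just missed the threshold (limma, adjusted p = 0.057). In CON it ran from 10.96 to 12.09 and in NCoR1-MKO from 11.72 to 12.93. Hlf, an output factor of the clock, was called, with a fall of 0.30 ± 0.06 that every fit with 1 array left out kept. The mean of the 16 genes was 0.06 to 0.14 above the CON mean on the NCoR1-MKO arrays, beside -0.03 to 0.05 in CON. Without Nr1d1 and Arntl, left out after their values were seen, it was -0.16 and -0.03 on NCoR1-MKO 1 and 2 and 0.07 to 0.09 on NCoR1-MKO 3 to 5, beside -0.04 to 0.03 in CON. Times of sampling are not given in the sources used here.

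Among markers of other cells, those of the endothelium, which lines vessels, were all positive: 12 of 12 values, a median of 0.20 and 1 call, Esam (0.21 ± 0.05). Over all genes 50.7 percent of values were positive. Of the 12 markers, 8 had an unadjusted p under 0.05, all higher, beside 12.2 percent of all genes. Esam kept its call only without CON 1 or NCoR1-MKO 3. Endothelial means were 0.39 and 0.28 on NCoR1-MKO 1 and 2 and 0.11 to 0.14 on NCoR1-MKO 3 to 5, beside -0.10 to 0.12 in CON. Of 26 angiogenesis factors 23 values were positive, the median was 0.06, and 6 were higher and 2 lower at an unadjusted p under 0.05. The 1 called gene fell: Vegfd, a growth factor of lymph and blood vessels, went from 7.61 to 7.81 in CON to 7.39 to 7.50 in NCoR1-MKO (limma, adjusted p = 0.00526). For smooth muscle, fibroblast, nerve, blood and satellite cell markers limma called none. The counts at an unadjusted p under 0.05 were 1 of 10, 0 of 10, 0 of 8, 0 of 4 and 2 of 10. The part of vessel cells in the other results was not tested.

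Housekeeping groups stayed near 0. The median change was 0.00 for 53 cytosolic ribosome genes, 0.02 for 38 proteasome genes, 0.01 for 30 heat shock and chaperone genes, 0.00 for 25 genes of the unfolded protein and stress responses and 0.02 for 23 cell cycle genes. Limma called none of them, with 3, 5, 7, 2 and 4 at an unadjusted p under 0.05, beside 12.2 percent of all genes. The 7 heat shock and chaperone genes were 4 higher and 3 lower. Of 24 genes of amino acid transport and polyamines 2 fell (8.33 percent, beside 1.89 percent of all genes called). Odc1, the first enzyme of polyamine synthesis, read 8.90, 8.75, 9.44, 8.93 and 9.48 in CON and 8.25, 8.42, 8.38, 8.29 and 8.55 in NCoR1-MKO, a 1.65-fold fall (limma, adjusted p = 0.00822). Slc38a2, a carrier of neutral amino acids, changed by -0.39 ± 0.08 and kept its call in 5 of the 10 fits. Aimp2, a scaffold of the tRNA synthetase complex, rose by 0.36 ± 0.06 (11.04 to 11.36 against 10.71 to 10.92) as the only call among 20 cytosolic synthetase genes.

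In all, 67 gene lists were counted, 46 held a called gene, and 78 of the 377 called genes were in a list. The measured size of the difference varied between the NCoR1-MKO arrays. Among genes called without a given NCoR1-MKO array, that array's change was a median of 0.89, 0.91, 1.03, 0.93 and 0.78 times the change on the other 4, for NCoR1-MKO 1 to 5. For rises on NCoR1-MKO 5 the ratio was 0.59. The same side of the CON mean was taken by 93.9 percent of the genes on NCoR1-MKO 5 and by 98.5 to 99.6 percent on the others. These ratios share the CON arrays and describe the arrays without a test. Each rests on a different set of genes (236 for NCoR1-MKO 3 to 410 for NCoR1-MKO 5). Those genes were called on the other arrays, and that choice can by itself bring a ratio below 1.

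**Figure D5:**
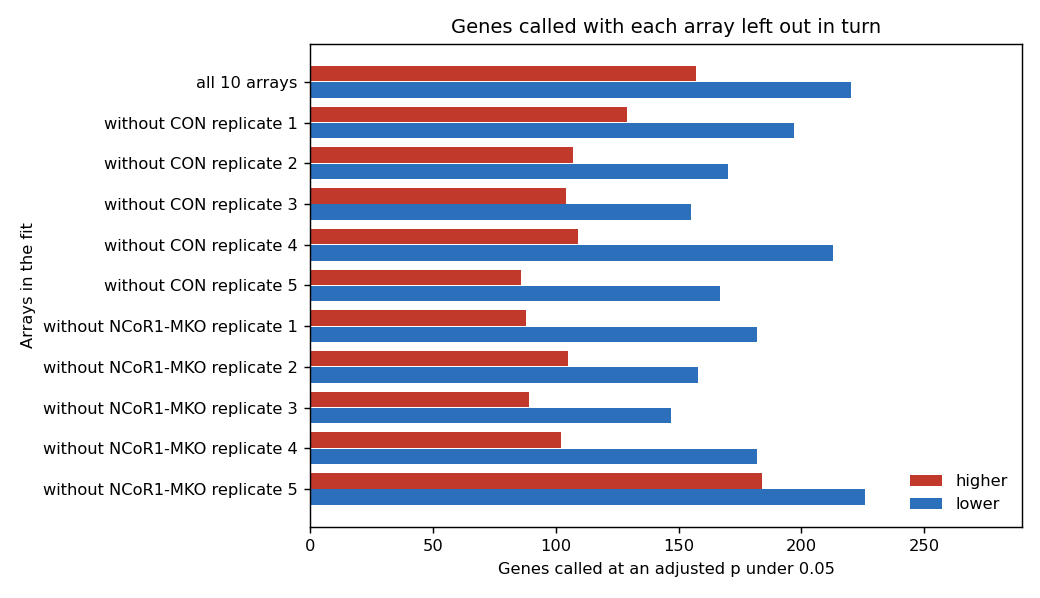
Bars give the number of genes that limma called higher (red) or lower (blue) at an adjusted p under 0.05 with all 10 arrays and with each array left out. Falls outnumber rises in every fit, and both counts are highest without NCoR1-MKO 5, at 184 and 226.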

How the data were processed

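RNA from 10 gastrocnemius samples was hybridised to Affymetrix mouse Gene 1.0 ST arrays, 1 array a sample and 5 a group (CON and NCoR1-MKO). The deposited values are log2 expression values made by the authors with RMA, which corrects background, equalises quantiles and summarises probes, and with Partek software, per the submitters' processing notes, without versions. That the base is 2 follows from the method named. Of 35556 probe sets, the 21789 with 1 gene symbol in the platform table were used (1621 had several, 12146 none), giving 19938 genes. For the 999 genes with several probe sets, the one with the highest mean was used. No dim gene was removed, so precision rests on the number of arrays.

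The fit (lmFit and eBayes of limma 3.58.1, R 4.3.3) used the 2 group means and was tested on simulated data. Tests were two-sided, with Benjamini-Hochberg adjustment over all genes and calls at an adjusted p under 0.05. The members and the gene lists were chosen with earlier results of these data known, so list counts and means are no independent evidence. Named genes are the 15 largest rises and falls with settled names, up to 4 called members of each list (in a list without a call, up to 2 by p), corepressor partners and neighbours of Ncor1. Other genes named (Nr1d1, Arntl, Myl3, Myh7, Tnni1, Tnnt1, Nrip1, Ppargc1a, Esrra and Ppard) were chosen after their values were seen, as were the 12 plotted in each direction. Alternatives covered the arrays in the fit, scaling, the probe set, dim genes, moderation, array weights, the replicate block and a fold minimum.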

Additional observations from a re-analysis of the deposited data

Results flagged for a closer look

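In 10 of 246 groups of 5 arrays 1 array stood far from the other 4, or 4.07 percent, and chance gives this in about 1 of 20 groups. NCoR1-MKO 5 was that array in 4 cases. It was low for Casr (8.02), Ppargc1b (8.14) and Gstm2 (10.44), a glutathione transferase, and high for Musk (9.532). NCoR1-MKO 4 was high for Sntb1 (9.499) and Mmgt2 (7.714), NCoR1-MKO 2 was low for Ndufb8 (10.42). Among the controls, CON 5 was low for Sirt3 (7.278), CON 2 was high for Dach2 (5.48), and CON 1 was high for Psma1 (10.31), a proteasome subunit.

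Probe sets without a single gene symbol were not in the comparison of genes. When all 35556 probe sets were tested with limma, 256 were called (0.72 percent), and 39 of them were among the 13767 without a single symbol, 16 higher and 23 lower. Probe set 10485357 showed the largest change on the arrays. It read 9.01, 10.83, 10.38, 11.96 and 10.65 in CON and 4.55, 4.44, 5.16, 4.40 and 4.52 in NCoR1-MKO, a difference of -5.95 ± 0.43 (limma, adjusted p = 1.51e-04). Its CON arrays spread over almost 3 units, while 4 of the NCoR1-MKO arrays lay within 0.2. Probe set 10386850 changed less but more evenly, from 10.33 to 10.42 in CON to 9.08 to 9.23 in NCoR1-MKO (-1.24 ± 0.04, limma adjusted p = 2.26e-07). The sources used here give neither of these probe sets a single gene symbol. By number, 10386850 lies between the probe sets of Zswim7 (10386844) and Cenpv (10386909), measured genes on either side of Ncor1 in gene order. Whether it measures Ncor1 was not tested.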

How the results depend on the processing

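The 157 rises and 220 falls became 261 and 264 when all 20 arrays shared the spread, 260 and 269 without the dimmest 40 percent of genes, 280 and 290 with eBayes by trend and robust, and 5 and 31 with a fold minimum of 1.2. With 1 array left out the rises ranged from 86 to 184 and the falls from 147 to 226. The 5 rises among LXR and SREBP targets became 1 with the fold minimum and 3 to 5 with 1 array left out. The 6 rises in complex I became 13 with trend and robust, 0 with the fold minimum, 2 to 5 with 1 array left out and 1 without the 3 arrays of low weight (CON 4, NCoR1-MKO 4 and NCoR1-MKO 5), an alternative chosen after seeing the data. That alternative gave 112 rises and 219 falls. With the replicate block the rises were 85, the falls 153, LXR and SREBP targets 3 and complex I 1. The sources used here do not state whether the numbers pair the samples. Deviations of same-numbered arrays correlated at -0.05, -0.13, -0.09, -0.03 and 0.04. Those of differently numbered arrays ranged from -0.23 to 0.24, so these values cannot decide it. Centring each array gave 125 and 218, quantile normalization 209 and 236, averaging a gene's probe sets 165 and 223, and array weights 190 and 249. Centring moved no list median by more than 0.010, and quantile normalization none by more than 0.031, so medians nearer to 0 than that have no settled direction. No change of a called named gene reversed in these settings. Of 89 called named genes, 81 kept their call after centring, 84 with all 20 arrays, 59 with the block, 18 with the fold minimum and 59 to 74 with 1 array left out. The causes of these shifts were not tested.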
